A study of Mus musculus with 12 samples.

Results

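Wild-type mouse astrocytes exposed to MPP+ were compared with wild-type astrocytes that received phosphate-buffered saline (PBS), 3 samples against 3. These 6 samples are the ones labelled wild type among the 12 of the series, and 21129 of the 32742 genes in the deposited table had enough counts to be tested. The cells were primary astrocytes grown from the midbrain of newborn mice of postnatal days 0 to 3, taken at Day 14 per the labels, and treated for 24 h with PBS or with 500 µM MPP+. Neither group carried a targeted allele or received any other named agent. The submitters started from mixed glia, shook the flasks to detach unwanted cells, and stated a purity above 95% from GFAP immunocytochemistry. Other cells may therefore remain, and markers of them are given below. Libraries were made from total RNA with a SMARTER kit for mRNA sequencing, and the labels do not say whether poly(A) RNA was selected. The labels do not say that the replicates came from separate cultures or animals. The p-values therefore measure only the spread between replicates, estimated over all 12 samples of the series.

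MPP+ is the charged toxin formed from MPTP, in the brain mainly by monoamine oxidase B of astrocytes, and it blocks electron transfer at complex I of the respiratory chain. Cells with a failing respiratory chain can activate the integrated stress response, in which kinases phosphorylate the translation factor eIF2, bulk translation slows and transcription factors such as Atf4 induce genes of amino acid supply. Astrocytes normally clear glutamate and potassium from the extracellular space, store glycogen, export lactate and lipids, and secrete proteins that act on synapses.

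Unless another quantity is named, a level is in CPM, the share of a library's counts on a common scale, with library sizes scaled by the trimmed mean of M values (TMM). A change is the log2 fold change of MPP+ minus PBS, and a value after ± is its standard error (SE, n = 3 samples a group). The spread behind the SE and the test was estimated from all 12 samples of the series, including those not labelled wild type. Calls rest on edgeR's two-sided quasi-likelihood test, with p-values adjusted by Benjamini-Hochberg over all tested genes and a threshold of 0.05. MPP+ changed a large share of the measured transcriptome. Of the tested genes 55.2% were called, 26.8% higher and 28.4% lower in MPP+, that is 5656 and 6011 genes. The rises were smaller on the whole than the falls, since 2018 genes rose and 3358 fell by at least 2-fold, and 624 rose and 1711 fell by at least 4-fold. The median change over all tested genes was -0.04, with quartiles of -0.81 and 0.55. These shares are the background against which each gene list below should be read. All lists were chosen with earlier results of these data known, and each is described by its counts and median, with no test of the list. Of the genes named below, the calls of Clock, Fn1, Gm6430, H2-K1, Hes1, Hspa5, Igf2, Lrrc8a, Map1lc3b, Mlkl, Oma1, Pcdhgb8, Pink1, Slc6a11, Slc7a2, Sox9, Sparc, Xrcc3 and the mitochondrial copies Gm28661 and Gm29216 were lost under at least 1 other setting or without 1 library.

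**Figure D1:**
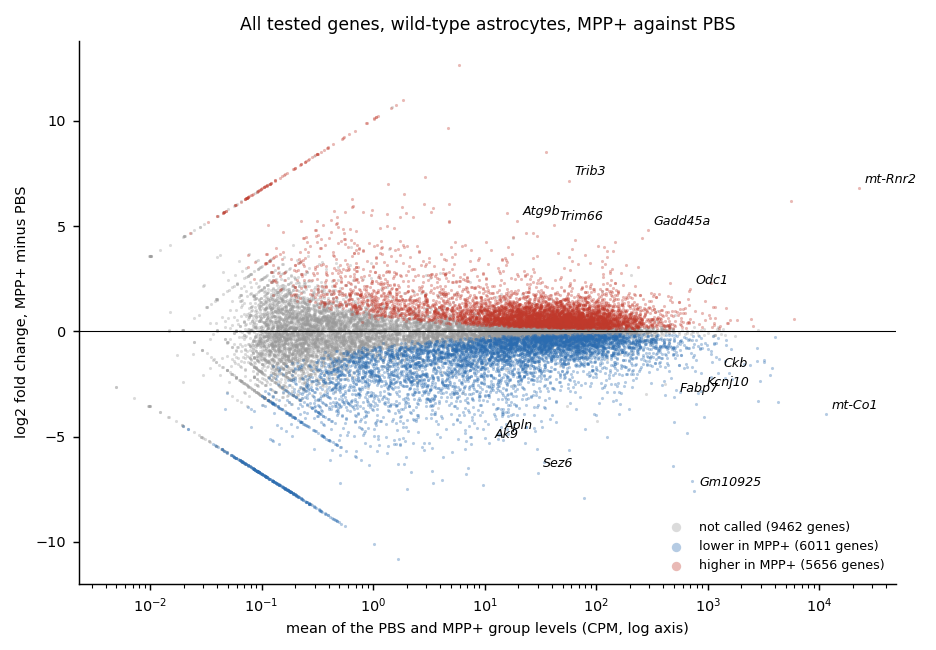
Log2 fold change of MPP+ minus PBS (vertical axis) against the mean of the 2 group levels in CPM (horizontal log axis) for the 21129 tested genes, with 5656 called higher in red, 6011 called lower in blue and the rest in grey. A reader should see calls across most levels of expression and more strong falls than strong rises. Straight streaks at the left are genes with counts in 1 group only.

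The libraries held between 64249029 and 69543713 counts. On the first principal component of the 6 libraries (67.4% of the variance) PBS lay between -99.3 and -96.5 and MPP+ between 82.2 and 107. MPP+ replicate 1 stood apart on that component, at 82.2, and on the second (10.3%), at 74.1 where the others had -54.6 and -10.9. Without it 11630 genes were called. Of the 10 astrocyte defining markers all were expressed, 0 rose and 9 fell, and the summed level went from 5811 to 6656 CPM in PBS to 1825 to 2419 CPM in MPP+. The gap junction gene Gja1 was the exception (-0.07, not called). Microglia and macrophage markers, 18 in number, summed to 1220 to 1823 CPM with PBS, against 713 to 917 CPM with MPP+, with 1 higher and 15 lower. Their part in any result below was not tested. Fibroblast and meningeal markers summed to 409 to 1179 CPM with PBS, against 235 to 604 CPM with MPP+, highest in replicate 1 of each group, and 3 of 11 fell. Pericyte and smooth muscle markers summed to 3952 to 4338 CPM with PBS, against 742 to 954 CPM with MPP+. Neuron, oligodendrocyte lineage, endothelial, mural and ependymal lists held 6, 6, 2, 6 and 6 called falls among 12, 13, 7, 8 and 8 tested markers. Oligodendrocyte lineage markers summed to 518 to 536 CPM with PBS, against 143 to 161.5 CPM with MPP+. Neuron markers summed to 474 to 586.5 CPM with PBS, against 232 to 257 CPM with MPP+. Of the neuron and oligodendrocyte lineage lists, only Mog, Rbfox3, Slc17a6 and Th were below the count filter. Cldn5 and Erg of the endothelial list, Kcnj8 of the mural list and Tmem212 of the ependymal list were also below it. The part of neurons and oligodendrocyte lineage cells in any result below was not tested. In bulk RNA, fewer cells of a type and less of an RNA per cell cannot be told apart, which holds for every fall below.

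**Figure D2:**
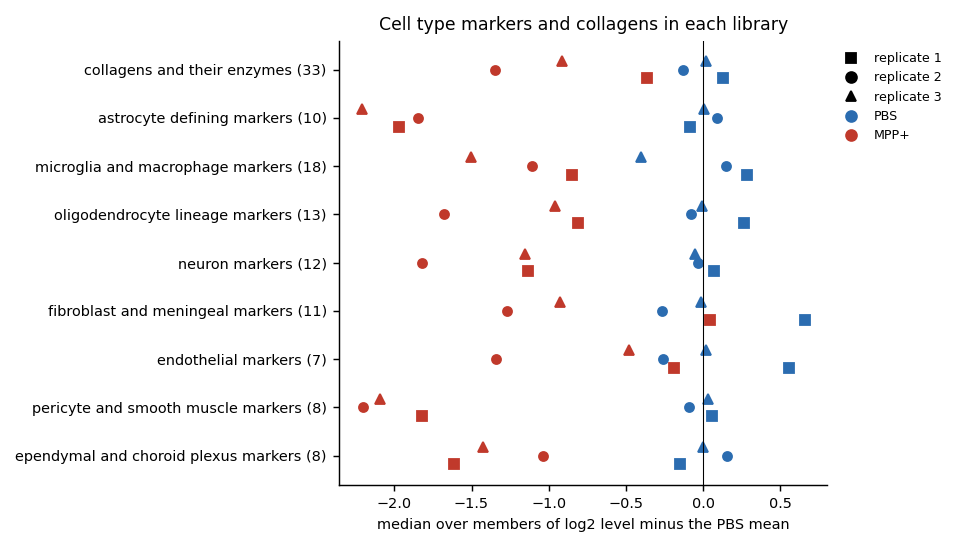
Median over the members of each marker list, and over the collagens, of the log2 level minus the mean of the PBS libraries (horizontal axis), for each library, with PBS in blue and MPP+ in red and a symbol for each replicate. Astrocyte markers lie near -2 in all 3 MPP+ libraries, whereas fibroblast, endothelial and collagen genes vary with the replicate, with MPP+ replicate 1 at or above the other MPP+ libraries.

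Of the 15 largest called rises that met the naming rule, 4 were RNAs encoded by the mitochondrial genome. Most genes of that genome went the other way, with 9 rises and 24 falls among 37 tested (median -1.47). The ribosomal RNA mt-Rnr2 went from a mean of 409 CPM to 35480, 43640 and 56360 CPM (6.79 ± 0.17), and mt-Rnr1 rose by 6.17. Counts at the transfer RNA genes mt-Tf and mt-Tt rose by 8.52 and 5.60. These genes span positions 1 to 68 and 15289 to 15355, next to mt-Rnr1 and mt-Cytb. Whether their reads came from longer transcripts was not tested. A processed pseudogene, Gm6430, was at 4.69 ± 1.54, with uncertain counts and a call that was lost without 1 library in 4 of 6 cases. The other 10 were protein-coding genes, several of them induced by stress. Trib3, a pseudokinase that binds Atf4 and Akt (ENSMUSG00000032715, GRCm38 chromosome 2, 152337422 to 152344032), was at 1.33, 0.557 and 0.518 CPM with PBS, against 123, 109 and 107 CPM with MPP+ (7.14 ± 0.30, adjusted p = 9.84e-09). Atg9b, a relative of the autophagy scramblase Atg9a (ENSMUSG00000038295, chromosome 5, 24384181 to 24392143), was at 1.19, 1.01 and 0.791 CPM with PBS, against 37.8, 33.4 and 43.9 CPM with MPP+ (5.26 ± 0.19, adjusted p = 3.7e-09). Both genes were near the bottom of the expressed range in PBS and above 30 CPM in each MPP+ library. Exons of Atg9b overlap those of another gene on the other strand, and no strand of the reads is known here, so the reads of these genes cannot be told apart there. Trim66, a tripartite motif protein (ENSMUSG00000031026, chromosome 7, 109449006 to 109508134), went from 2.29, 3.78 and 1.35 CPM to 77.5, 77.7 and 88.9 CPM (5.04 ± 0.31). Gadd45a, a growth arrest and DNA damage protein (ENSMUSG00000036390, chromosome 6, 67035096 to 67037406), went from 20.4, 21.2 and 18.8 CPM to 422, 709 and 561 CPM (4.81 ± 0.20). The groups of these genes did not overlap, and MPP+ replicate 1 had the lowest of the MPP+ values for Gadd45a. Chac1, a glutathione-degrading enzyme and target of Atf4, rose by 4.53 ± 0.15.

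Secreted proteins among the 15 largest rises were Angptl6, Gdf15 and Pappa. Gdf15, a circulating signal of mitochondrial and other cell stress, was at 5.39, 5.91 and 7.28 CPM with PBS, against 67.2, 167 and 136 CPM with MPP+ (4.31 ± 0.36). Pappa, a protease that cleaves binding proteins of insulin-like growth factors, was at 15.7, 13.1 and 16 CPM with PBS, against 272, 261 and 317 CPM with MPP+ (4.25 ± 0.19). Angptl6, an angiopoietin-like protein, rose by 4.69 ± 0.19. Of 15 tested genes of secreted stress peptides and growth factors 11 rose and 2 fell, with a median of 1.73. Stanniocalcins, calcium and phosphate regulating glycoproteins, split: Stc2 rose by 3.01 ± 0.21 and Stc1 went from a mean of 3.93 to 0.144 CPM (-4.74 ± 0.51, and -5.40 without MPP+ replicate 1). Epidermal growth factor receptor ligands rose less, with Ereg at 1.39 and Hbegf at 0.75, and Areg was not called.

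Among the strongest falls outside the division genes were proteins of neural membranes. Sez6, a brain membrane protein of dendrites (ENSMUSG00000000632, chromosome 11, 77930800 to 77979048), was at 57.9, 58.8 and 61.1 CPM with PBS, against 0.872, 0.302 and 0.508 CPM with MPP+ (-6.72 ± 0.27, adjusted p = 6.17e-09). Unc79, part of the complex of the sodium leak channel (ENSMUSG00000021198, chromosome 12, 102948859 to 103184065), went from 25.5, 26.4 and 25.3 CPM to 1.33, 0.453 and 0.446 CPM (-5.11 ± 0.38, and -5.83 without MPP+ replicate 1). Apln, the precursor of the peptide apelin (ENSMUSG00000037010, chromosome X, 48025146 to 48034853), went from 26.8, 24.8 and 26.8 CPM to 1.02, 0.740 and 0.877 CPM (-4.89 ± 0.20). All 3 were at about 1 CPM or less in each MPP+ library. Ak9, an adenylate kinase, fell by 5.31 on the log2 scale, from a mean of 21.4 to 0.538 CPM. The same rank held division genes, among them Pbk, Cenpf, Nuf2, Pclaf, Pimreg, Mki67 and Bub1, with changes between -6.19 and -4.92. Pcdhgb8 also met the naming rule at -7.91 ± 3.04, but its PBS libraries were at 1.71, 462 and 1.41 CPM, so the fall rested on replicate 2, without which it was at -1.29.

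**Figure D3:**
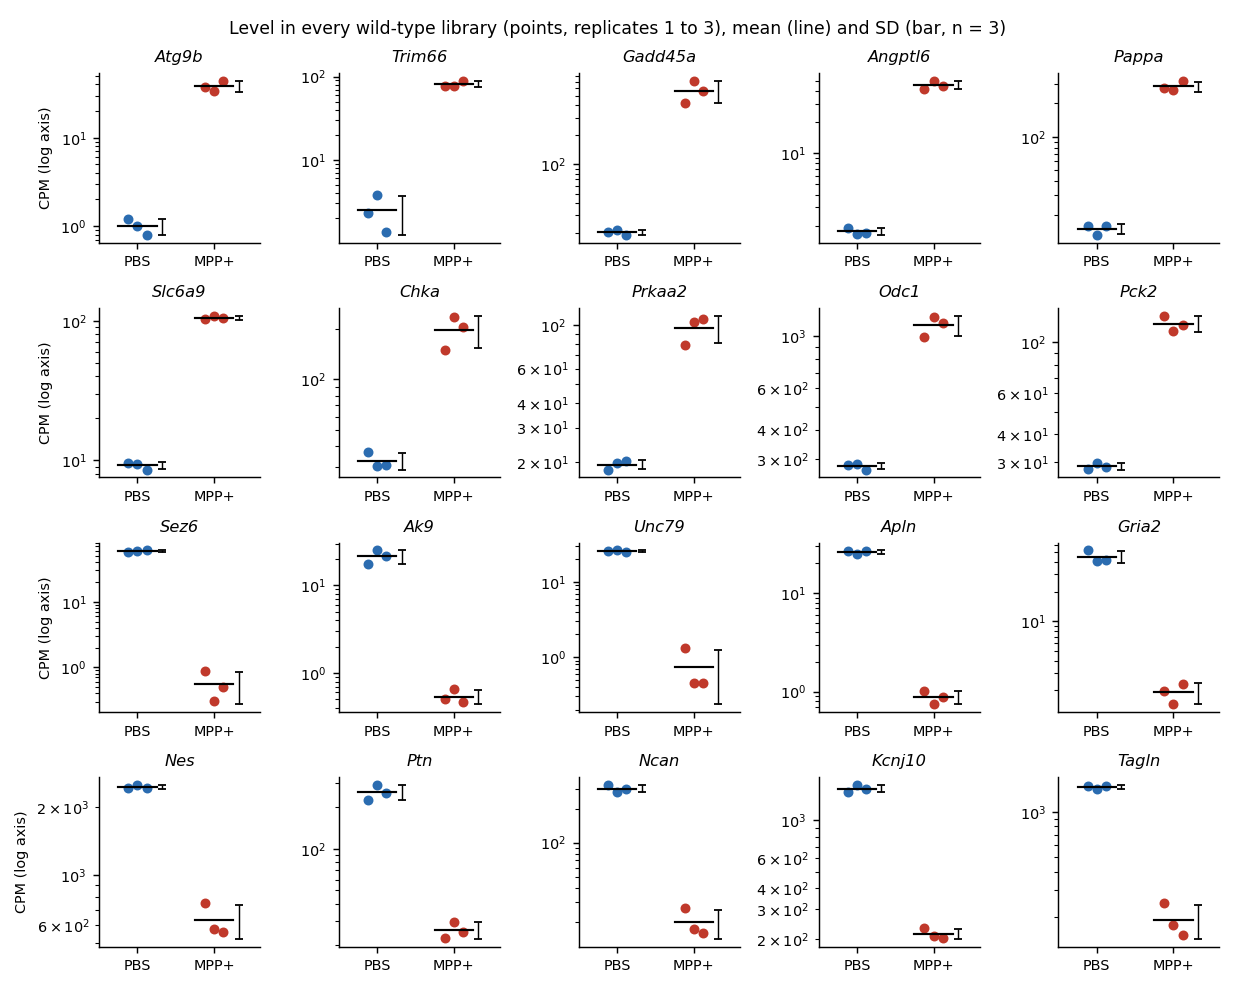
Level in CPM (log axis) of 20 genes in each of the 6 libraries, points for replicates 1 to 3, a line for the group mean and a bar for the SD (n = 3). Values were known when the 20 genes were picked to show rises (upper rows) and falls (lower rows) in which the PBS and MPP+ libraries do not overlap.

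Most listed regulators of the integrated stress response rose, but the kinases that phosphorylate eIF2 were mixed. Of 21 kinases, transcription factors and feedback genes, 18 rose and 2 fell, with a median of 1.48 and a summed level of 1033 to 1041 CPM with PBS, against 3086 to 3608 CPM with MPP+. Chop (Ddit3), the transcription factor downstream of Atf4, rose by 4.45 ± 0.11, from a mean of 22.8 to 498 CPM. Nupr1, a small stress-induced chromatin protein, rose by 4.0, and Ppp1r15a, the phosphatase subunit that reverses eIF2 phosphorylation, by 3.04. The other factors of the family moved less, with Atf5 at 1.72, Cebpg at 1.26, Atf3 at 1.15 and Atf4 itself at 1.75. The 4 kinases that phosphorylate eIF2 did not move together: Eif2ak3 of the endoplasmic reticulum rose by 0.84 and the amino acid sensor Eif2ak4 by 0.57, the heme-regulated Eif2ak1 was at -0.08 and not called, and the double-stranded RNA sensor Eif2ak2 fell by 0.99. Oma1, the mitochondrial protease of this route, rose by 0.27 and its substrate Dele1 fell by 0.38.

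Atf4 binds composite elements shared with C/EBP factors. Windows of 5 lists that hold known Atf4 targets were searched for such letters; the lists did not all move 1 way, as the counts given with each list show. RefSeq promoter windows (GRCm38.p6, 250 bases before to 50 after the start of a gene) were given for 13239 tested genes and were searched on both strands for TGATGNAA, the core of the C/EBP-ATF response element. It was found in 319 windows, 2.41%. By list it was in 4 of 17 windows of stress response regulators (23.5%), 5 of 15 of cytosolic tRNA synthetases (33.3%), 3 of 16 of asparagine, proline and glutamate enzymes (18.8%), 2 of 17 of amino acid transporters (11.8%) and 0 of 17 of serine and one-carbon enzymes. Among all genes called higher the share was 2.72%, and among those called lower 2.22%. The member with the largest change that held the motif is shown for each of 4 lists, with the motif in capitals. A match describes the letters in the window and is not a measured binding site.
Trib3 (chr2:152344011-152344310, minus strand): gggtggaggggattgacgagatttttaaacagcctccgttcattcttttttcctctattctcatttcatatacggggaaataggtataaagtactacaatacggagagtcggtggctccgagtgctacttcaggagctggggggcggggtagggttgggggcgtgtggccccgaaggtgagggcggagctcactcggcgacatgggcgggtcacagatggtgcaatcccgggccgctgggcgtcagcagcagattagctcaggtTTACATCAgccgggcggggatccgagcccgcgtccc
Slc7a11 (chr3:50443564-50443863, minus strand): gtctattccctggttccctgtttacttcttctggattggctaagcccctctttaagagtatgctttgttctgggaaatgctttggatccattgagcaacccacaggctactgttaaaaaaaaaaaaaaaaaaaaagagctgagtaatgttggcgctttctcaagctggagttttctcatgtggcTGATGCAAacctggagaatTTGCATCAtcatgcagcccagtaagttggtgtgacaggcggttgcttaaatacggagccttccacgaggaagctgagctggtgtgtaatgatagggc
Pycr1 (chr11:120643699-120643998, minus strand): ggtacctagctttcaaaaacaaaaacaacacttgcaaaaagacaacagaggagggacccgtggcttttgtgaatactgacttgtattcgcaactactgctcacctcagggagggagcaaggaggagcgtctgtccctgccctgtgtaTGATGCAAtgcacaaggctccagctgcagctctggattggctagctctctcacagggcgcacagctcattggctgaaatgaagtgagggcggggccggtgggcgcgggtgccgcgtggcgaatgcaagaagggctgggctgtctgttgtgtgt
Gars (chr6:55037751-55038050, plus strand): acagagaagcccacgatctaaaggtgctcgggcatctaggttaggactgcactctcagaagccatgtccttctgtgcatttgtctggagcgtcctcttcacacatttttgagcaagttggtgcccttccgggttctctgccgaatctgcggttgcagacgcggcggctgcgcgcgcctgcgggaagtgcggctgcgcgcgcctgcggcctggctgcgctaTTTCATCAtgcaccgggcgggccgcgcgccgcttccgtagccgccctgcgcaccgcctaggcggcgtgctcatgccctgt

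Amino acid transporters moved in both directions. Plasma membrane amino acid transporters held 11 rises and 10 falls among 24 tested members, with a median of 0.12 that was -0.08 without PBS replicate 3. Slc7a3, a carrier of arginine and lysine, went from 2.09, 0.967 and 1.61 CPM to 40.4, 33.0 and 30.4 CPM (4.47 ± 0.23). Slc6a9, the glycine transporter GlyT1, was at 9.58, 9.48 and 8.59 CPM with PBS, against 103, 109 and 104 CPM with MPP+ (3.51 ± 0.09, adjusted p = 5.14e-10). Slc1a5, a carrier of glutamine and other neutral amino acids, went from 4.87, 4.04 and 4.72 CPM to 45.5, 66.2 and 53.1 CPM (3.59 ± 0.17). In the same gene family the glutamate transporters Slc1a2 and Slc1a3 fell by 1.56 and 0.59. Slc3a2, the heavy chain that carries several light chains to the membrane, rose by 1.90 to a mean of 1065 CPM. The glutamine exporter Slc38a3 fell by 0.99, the GABA transporter Slc6a11 by 1.25 and the cationic carrier Slc7a2 by 1.23.

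Mitochondrial folate enzymes were among the largest rises of the serine and one-carbon list. In that list 11 of 21 rose and 4 fell, with a median of 0.41. Mthfd2, the mitochondrial methylene-tetrahydrofolate dehydrogenase, was at 14.2, 10.6 and 11.7 CPM with PBS, against 146, 156 and 141 CPM with MPP+ (3.60 ± 0.13). Aldh1l2, which oxidises formyl-tetrahydrofolate in mitochondria, rose by 3.33 ± 0.11, whereas its cytosolic relative Aldh1l1, a common astrocyte marker, fell by 1.07 ± 0.09. The serine hydroxymethyltransferase of mitochondria, Shmt2, rose by 2.01 and the cytosolic Shmt1 by 0.61. The serine pathway enzymes Psph, Phgdh and Psat1 rose by 2.19, 1.08 and 0.51, and the glycine cleavage genes Gldc and Amt fell by 1.17 and 0.55.

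Enzymes of asparagine, proline, glutamate and branched-chain amino acids held 13 rises and 5 falls among 21 (median 0.49). Pycr1, the last enzyme of proline synthesis in mitochondria, went from 2.98, 1.27 and 2.96 CPM to 27.4, 26.3 and 25.5 CPM (3.46 ± 0.26). Asns, asparagine synthetase, rose by 3.04 and Bcat1, the cytosolic branched-chain aminotransferase, by 2.51. Ornithine aminotransferase (Oat) and glutamate dehydrogenase (Glud1) fell by 0.70 and 0.80. Cytosolic tRNA synthetases and their partners rose in 19 of 23 cases and fell in 1 (median 1.30), led by Wars at 2.28 ± 0.08, Gars at 2.18 ± 0.07 and Cars at 2.16 ± 0.08. Gars was at 69.6, 57.8 and 61.9 CPM with PBS, against 296, 281 and 278 CPM with MPP+. Hars, Qars and Aimp2 were not called and Dars fell by 0.40. The mitochondrial synthetases had 7 rises and 4 falls among 17 and a median of 0.09, and the largest change was -0.90 for Sars2.

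**Figure D4:**
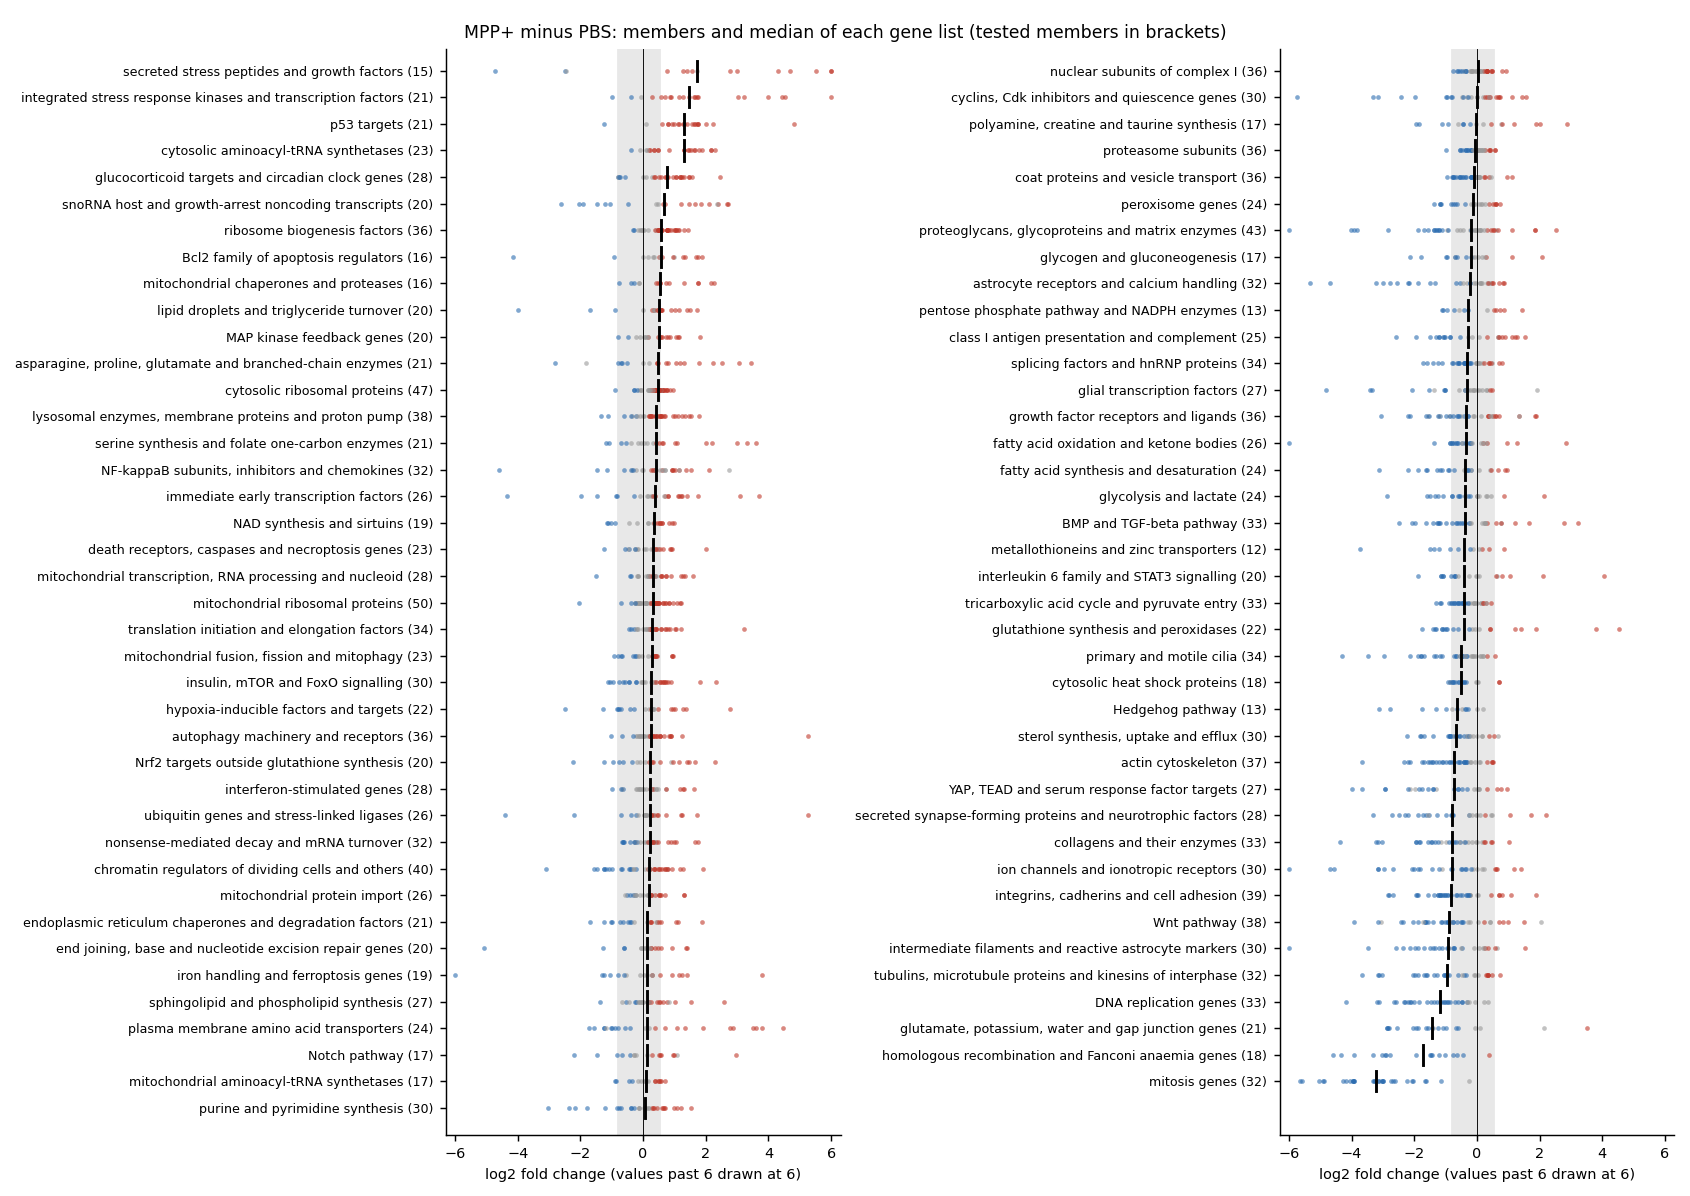
Log2 fold change of MPP+ minus PBS for the members of each gene list (points, red called higher, blue called lower, grey not called), ordered by the list median (black tick), with the number of tested members in brackets. The grey band spans the quartiles of all tested genes, -0.81 to 0.55. Secreted stress peptides, stress response regulators, p53 targets and cytosolic tRNA synthetases lead, and mitosis genes, homologous recombination genes and astrocyte glutamate and potassium genes lie lowest.

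Chaperones moved by compartment. Mitochondrial chaperones and proteases rose in 11 of 16 cases and fell in 3 (median 0.54). Dnaja3, a mitochondrial co-chaperone, went from 54.0, 54.8 and 52.4 CPM to 170, 196 and 178 CPM (1.75 ± 0.06). The nucleotide exchange factor Grpel2 rose by 1.75 against 0.54 for Grpel1, the protease subunit Clpp rose by 1.31, and its partner Clpx fell by 0.40. Cytosolic heat shock genes went the other way, with 2 higher and 12 lower of 18 and a median of -0.52. Hspa8, the constitutive Hsp70, was at 1314, 1279 and 1668 CPM with PBS, against 770, 778 and 684 CPM with MPP+ (-0.93 ± 0.09), and Hsp90aa1 fell by 0.78. The exceptions that rose were Hsf1, the heat shock transcription factor, at 0.71 and Dnajb1 at 0.69.

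Genes of the endoplasmic reticulum split into 9 rises and 9 falls among 21 (median 0.14). The degradation and membrane genes Herpud1 (1.87 ± 0.09), Sel1l (1.10) and Edem1 (1.06) rose, the major luminal Hsp70, Hspa5, rose by 0.45, and folding enzymes such as Pdia4 (-1.03), Dnajc3 (-1.25) and Calr (-0.73) fell. Sdf2l1, a co-chaperone of the lumen, went from 9.79, 8.97 and 8.66 CPM to 3.21, 2.89 and 2.32 CPM (-1.70 ± 0.19). Xbp1, counted over both of its splice forms, was at 0.40 and not called. The letters CCACG, the end of the element through which Atf6 and Xbp1 act, were found in 44.5% of all windows and in 15 of 18 windows of this list (83.3%), in risers and fallers alike. The windows of the gene with the largest rise and of that with the largest fall are shown, with each match on either strand in capitals.
Herpud1 (chr8:94386179-94386478, plus strand): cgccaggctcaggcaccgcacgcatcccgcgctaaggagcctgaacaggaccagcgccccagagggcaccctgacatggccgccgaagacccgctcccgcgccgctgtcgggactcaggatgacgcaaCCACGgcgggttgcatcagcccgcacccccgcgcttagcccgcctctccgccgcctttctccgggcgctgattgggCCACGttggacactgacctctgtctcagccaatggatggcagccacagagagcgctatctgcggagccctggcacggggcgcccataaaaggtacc
Sdf2l1 (chr16:17132334-17132633, minus strand): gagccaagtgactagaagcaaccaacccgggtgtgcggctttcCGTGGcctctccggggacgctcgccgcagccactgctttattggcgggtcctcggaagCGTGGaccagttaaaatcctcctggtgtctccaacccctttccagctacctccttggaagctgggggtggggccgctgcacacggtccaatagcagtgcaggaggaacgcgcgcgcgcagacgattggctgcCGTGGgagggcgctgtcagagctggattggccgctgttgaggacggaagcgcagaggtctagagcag

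Antioxidant genes did not move as a block. Glutathione genes held 7 rises and 12 falls among 22 (median -0.43), and Nrf2 targets outside glutathione synthesis 10 rises and 6 falls among 20 (median 0.23). Gpx4, which reduces lipid peroxides, went from 305, 301 and 317 CPM to 712, 904 and 818 CPM (1.40 ± 0.09), whereas Gpx8 of the endoplasmic reticulum went from 177, 165 and 165 CPM to 69.1, 71.3 and 65.2 CPM (-1.30 ± 0.07) and Gpx1 fell by 0.99. The pseudogene Gpx4-ps2 rose by 1.21, so reads may be split between the copies. Glutathione synthetase (Gss) rose by 1.21, the catalytic subunit of the rate-limiting ligase (Gclc) fell by 1.05 and its modifier Gclm was not called (0.07). Thioredoxin reductase (Txnrd1) and sulfiredoxin (Srxn1) rose by 1.64 and 1.39, and the mitochondrial superoxide dismutase Sod2, the extracellular Sod3 and Nqo1 fell by 0.65, 2.24 and 0.76. Ferritin light chain (Ftl1) rose by 1.16 and heavy chain (Fth1) by 0.54, while Ncoa4, the receptor that delivers ferritin to lysosomes, fell by 1.24. The metallothioneins Mt1, Mt2 and Mt3 fell by 1.21, 1.38 and 1.51. Mt3, the brain form, was at 457, 506 and 536 CPM with PBS, against 165, 193 and 170 CPM with MPP+. The zinc exporter gene Slc30a10 fell by 3.75 and the importer gene Slc39a14 rose by 0.86.

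Targets of the tumour suppressor p53 rose in 19 of 21 cases and fell in 1 (median 1.31), next to rises of the p53 gene itself (Trp53, 0.80) and of the cell cycle inhibitor Cdkn1a (1.55). The wider KEGG set of p53 signalling was mixed, with 31 rises and 22 falls among 70 genes (median 0.08). The kinase gene Plk2 rose by 2.22, the antiproliferative gene Btg2 by 1.75 and the subunit gene Rrm2b of ribonucleotide reductase by 1.14. In the Bcl2 family 8 of 16 rose and 2 fell (median 0.56). Both arms of the family were among the risers. The activators of death Bbc3 (Puma), Bid and Pmaip1 (Noxa) rose by 1.77, 1.70 and 1.27, and the protectors Bcl2l1 and Mcl1 by 1.87 ± 0.38 and 0.96 ± 0.08. Bcl2l1 was at 59.9, 61.2 and 59.5 CPM with PBS, against 326, 176 and 156 CPM with MPP+, highest in replicate 1 of MPP+. Bcl2 was not called (0.16). Among death receptor, caspase and necroptosis genes 10 of 23 rose and 4 fell, with Casp9 at 0.90 and Fadd at 0.86, and Mlkl, the effector of necroptosis, at -0.58.

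The lists of DNA repair genes differed. Homologous recombination and Fanconi anaemia genes held 1 rise and 17 falls among 18 (median -1.72). Fanci, a clamp of crosslink repair, went from 16.1, 17.5 and 15.9 CPM to 0.532, 1.22 and 0.292 CPM (-4.59 ± 0.41, and -5.31 without MPP+ replicate 2), and its exons overlap those of Polg on the other strand. Brca1 fell by 3.04, and the rise was Xrcc3 at 0.39. End joining, base and nucleotide excision repair held 8 rises and 4 falls among 20 (median 0.14). Xpc, the damage sensor of nucleotide excision repair, went from 24.3, 26.5 and 23.1 CPM to 59.4, 69.0 and 68.1 CPM (1.41 ± 0.08). The repair polymerase gene Polb rose by 1.38 and the Ku70 gene Xrcc6 by 0.94. The glycosylase gene Neil3 fell by 5.09 (-5.82 without MPP+ replicate 2). The wider KEGG sets did not divide in this way, with 12 rises and 17 falls among 40 genes of homologous recombination (median -0.21), 13 and 21 among 43 of nucleotide excision repair (median -0.24) and 10 and 12 among 34 of base excision repair (median -0.02).

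Listed division genes fell with few exceptions, with 0 rises and 31 falls among 32 mitosis genes (median -3.21). The replication list held 0 rises and 28 falls among 33 genes (median -1.17). The wider KEGG sets were more mixed, with 30 rises and 59 falls among 121 genes of the cell cycle (median -0.32). KEGG DNA replication held 4 rises and 22 falls among 35 (median -0.88). Cenpf, a kinetochore protein, went from 114, 116 and 106 CPM to 1.77, 2.80 and 2.17 CPM (-5.64 ± 0.19). The letters TTTGAA, the cell cycle genes homology region bound by the DREAM and B-Myb complexes, were in 12.6% of all windows, 18 of 26 windows of mitosis genes (69.2%) and 4 of 25 of replication genes (16%). The E2F core TTTCCCGC was in 1.85% of all windows, 6 of 25 of replication genes (24.0%) and 0 of 26 of mitosis genes. The window of the mitosis gene with the largest fall that holds the homology region is shown with the match in capitals.
Cenpf (chr1:189688037-189688336, minus strand): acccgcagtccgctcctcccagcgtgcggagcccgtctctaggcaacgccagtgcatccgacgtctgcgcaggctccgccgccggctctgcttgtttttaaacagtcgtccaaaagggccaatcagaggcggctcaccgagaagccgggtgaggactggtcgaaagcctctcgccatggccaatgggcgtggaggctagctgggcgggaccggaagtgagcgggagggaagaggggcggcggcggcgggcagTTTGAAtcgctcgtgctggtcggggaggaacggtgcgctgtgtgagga

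Cyclins and their inhibitors were mixed, with 11 rises and 11 falls among 30. The retinoblastoma genes Rb1 and Rbl2 rose by 0.74 and 0.69, Cdkn2b rose by 1.42, and the late E2F genes E2f7 and E2f8 fell, at -5.75 (-6.34 without MPP+ replicate 1) and -3.17. The median of this list was 0.00, and its sign changed with the scaling (-0.02 with DESeq2 size factors). Among chromatin genes, with 18 rises and 14 falls of 40, the architectural protein gene Hmga1 rose by 1.92, the demethylase gene Kdm6b by 1.27, and Uhrf1, which guides maintenance methylation, fell by 3.09.

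Central carbon metabolism fell on the whole. Genes of the tricarboxylic acid cycle and pyruvate entry held 4 rises and 19 falls among 33 (median -0.42), glycolysis 2 rises and 14 falls among 24 (median -0.38), and fatty acid oxidation 5 rises and 16 falls among 26 (median -0.36). Citrate synthase (Cs) fell by 0.46, and Idh3g and the malic enzyme genes Me2 and Me3 also fell, at -1.16, -1.32 and -1.18. Both subunits of the mitochondrial trifunctional enzyme fell, Hadha by 1.38 and Hadhb by 0.38. Cpt1a, the gate of fatty acid entry, fell by 0.88. In glycolysis Eno2, the neuronal form of enolase, went from 19.9, 23.2 and 20.9 CPM to 64.7, 122 and 93.5 CPM (2.13 ± 0.19), while the ubiquitous Eno1 fell by 1.58 ± 0.10. Hexokinase 2 (Hk2) rose by 0.86. The kinase gene Pfkm and the brain aldolase gene Aldoc fell, at -1.5 and -2.88, as did the lactate genes Ldha (-1.08) and Slc16a1 (-1.35). The glucose transporter gene Slc2a1 was not called (0.28).

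Glycogen genes fell, with 3 rises and 8 falls among 17 genes of glycogen and gluconeogenesis. Pygb, the brain glycogen phosphorylase, fell by 1.77 from a mean of 547 to 160 CPM, and the glycogen targeting subunit Ppp1r3c by 2.14. Pck2, the mitochondrial phosphoenolpyruvate carboxykinase, was at 28.0, 29.9 and 28.7 CPM with PBS, against 131, 112 and 120 CPM with MPP+ (2.07 ± 0.12). In the pentose phosphate pathway the first dehydrogenases fell, G6pdx by 0.97 and Pgd by 0.74, and the later enzymes Rpia, Rpe and Taldo1 rose by 1.42, 0.85 and 0.62.

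Genes of sterol and fatty acid synthesis fell more often than they rose. Those of lipid droplets and triglyceride turnover, which include genes of breakdown, rose more often than they fell. Sterol genes held 2 rises and 20 falls among 30 (median -0.66) and fatty acid synthesis 4 rises and 15 falls among 24 (median -0.38). The desaturase gene Scd2 went from 743, 817 and 760 CPM to 182, 166 and 155 CPM (-2.21 ± 0.11), Scd1 fell by 1.59 and fatty acid synthase (Fasn) by 1.12. The binding protein gene Fabp7, typical of radial glia and young astrocytes, fell by 3.13 ± 0.09. The sterol enzyme gene Pmvk fell by 1.81, with the regulators Srebf1 at -1.28 and Srebf2 at -0.57, whereas the cholesterol exporter gene Abca1 rose by 0.38. Of 20 genes of lipid droplets and triglyceride turnover 14 rose and 3 fell (median 0.52). Lpin1, a phosphatidate phosphatase, went from 62.2, 64.3 and 62.1 CPM to 167, 223 and 236 CPM (1.73 ± 0.11), Abhd5, the activator of triglyceride lipase, rose by 1.13, and the monoglyceride lipase gene Mgll fell by 1.69. Chka, the first enzyme of phosphatidylcholine synthesis, went from 37.0, 30.3 and 30.8 CPM to 151, 235 and 206 CPM (2.59 ± 0.15). Ceramide synthase genes split, with Cers2 at 1.01 and Cers4 at -1.37.

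Energy buffering and polyamine genes included large moves of opposite sign. Ckb, the brain creatine kinase, went from 1960, 1901 and 2080 CPM to 479, 544 and 502 CPM (-1.96 ± 0.08), and Ckmt1, a mitochondrial creatine kinase, from 3.55, 3.17 and 3.91 CPM to 23.6, 23.2 and 30.7 CPM (2.87 ± 0.20). Per length, the mean of Ckb remained above that of Ckmt1 in MPP+, at 162 FPKM for Ckb. Odc1, the first enzyme of polyamine synthesis, went from 281, 286 and 269 CPM to 989, 1210 and 1141 CPM (2.0 ± 0.08). Spermidine synthase (Srm) rose by 1.18, and the antizyme genes Oaz1 and Oaz2, whose products target Odc1 for degradation, fell by 1.12 and 0.93. The median of the polyamine, creatine and taurine list was -0.02 and 0.02 with total counts alone, so its sign depended on the scaling.

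**Figure D5:**
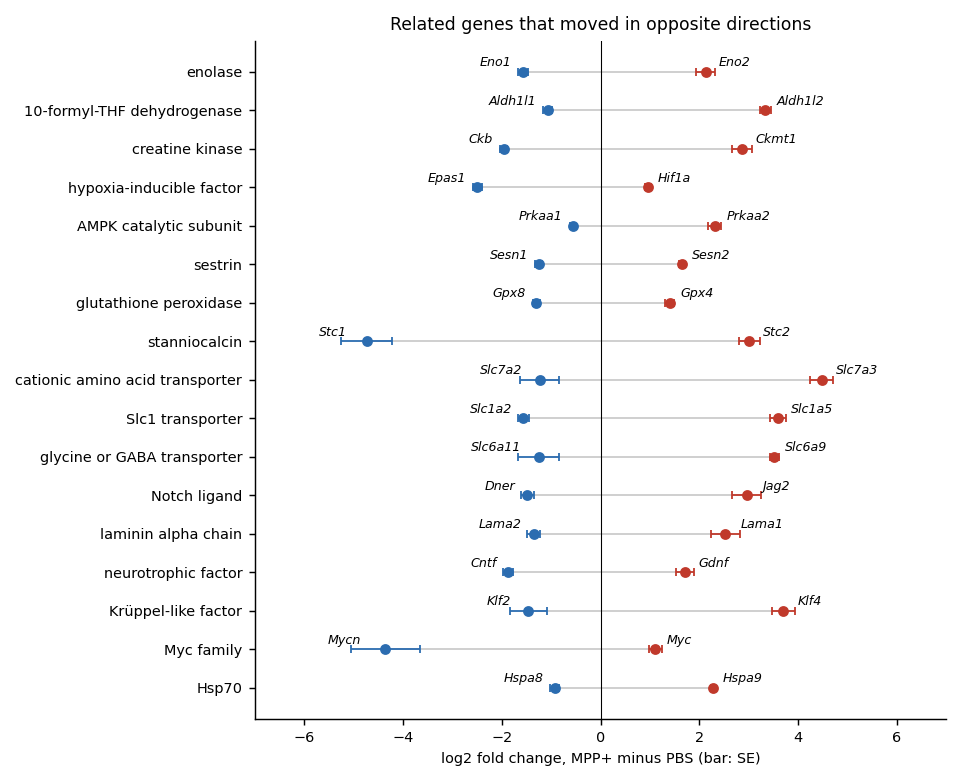
Log2 fold change of MPP+ minus PBS (horizontal axis) with its SE for pairs of related genes that were both called in opposite directions, red for the member that rose and blue for the one that fell. The pairs were picked with their values known. Among them are Eno2 at 2.13 and Eno1 at -1.58, Ckmt1 at 2.87 and Ckb at -1.96, and Aldh1l2 at 3.33 and Aldh1l1 at -1.07.

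Nuclear genes of mitochondria changed by small amounts, and those of mitochondrial gene expression rose more often than they fell. Complex I, which MPP+ inhibits, has nuclear subunits that held 12 rises and 8 falls among 36 with a median of 0.03 (-0.04 without PBS replicate 1), and the changes ran from -0.76 for Ndufa1 to 0.94 for Ndufa6. Mitochondrial ribosomal proteins held 28 rises and 4 falls among 50 (median 0.31), from Mrps6 at -2.06 ± 0.13 to Mrpl38 at 1.2 ± 0.11, though Mrps6 shares exons with Slc5a3. Genes of mitochondrial transcription, RNA processing and the nucleoid held 14 rises and 3 falls among 28 (median 0.32), led by the topoisomerase gene Top1mt (1.59) and the helicase gene Twnk (1.32), while the packaging factor gene Tfam was not called (-0.15). In protein import 11 of 26 rose and 4 fell, led by the intermembrane space genes Timm10 (1.32) and Chchd4 (1.29). In dynamics and mitophagy, with 11 rises and 7 falls among 23, Mtfr1 and Mief1 rose by 0.96 and 0.93, Rhot2 and Fis1 fell by 0.92 and 0.79, and Pink1 fell by 0.25. The coactivator gene Ppargc1b rose by 2.83 from a low mean of 0.254 CPM, and the better expressed Ppargc1a was not called (0.30).

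Listed Hedgehog, Wnt and BMP genes fell more often than they rose, and listed Notch genes did not. Hedgehog pathway genes held 0 rises and 9 falls among 13 (median -0.63). The ligand Shh went from 48.3, 42.1 and 43.4 CPM to 19.8, 9.49 and 10.4 CPM (-1.75 ± 0.26), its receptor and target Ptch1 fell by 0.99 and the co-receptor Gas1 by 2.78 (-3.40 without MPP+ replicate 1), and the target Gli1 was not called (-0.48). Wnt genes held 5 rises and 24 falls among 38 (median -0.89), with the feedback target Axin2 at -1.40, the ligands Wnt7a and Wnt5b at -1.62 and -2.37, the secreted inhibitors Sfrp1 and Dkk3 at -1.55 and -2.44, and Wnt7b at 0.99. In the BMP and TGF-beta list 7 rose and 18 fell of 33 (median -0.38). The Id genes, direct targets of BMP signalling, all fell, by 0.98 for Id1, 1.97 for Id2, 2.08 for Id3 and 2.48 for Id4. Id4 was at 214, 249 and 235 CPM with PBS, against 47.0, 37.4 and 40.7 CPM with MPP+. The BMP antagonist gene Grem1 rose by 3.22 from 0.573 to 5.34 CPM. In wider KEGG sets, Hedgehog held 12 rises and 18 falls among 43 (median -0.29) and Wnt 42 and 55 among 144 (median -0.25). Over the KEGG TGF-beta pathway 29 rose and 29 fell of 81 (median 0.11). Notch genes held 7 rises and 5 falls among 17 (median 0.11, and -0.09 with the stricter count filter), and the KEGG Notch pathway 21 and 8 among 48. The ligand gene Jag2 went from 1.27, 2.36 and 1.74 CPM to 11.9, 13 and 16.7 CPM (2.95 ± 0.29), Jag1 rose by 0.99, the target Hes1 fell by 0.85, and Lfng, a glycosyltransferase of Notch, fell by 2.21.

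Growth factor, nutrient and hypoxia genes were mixed. Feedback genes of MAP kinase signalling held 12 rises and 2 falls among 20 (median 0.51), with Il17rd at 1.82 ± 0.46 (33.1 CPM in MPP+ replicate 1 and 12.2 and 10.3 CPM in the others, and 1.10 as the change without replicate 1) and the phosphatase genes Dusp10 and Dusp4 at 1.13 and 1.11. The receptor gene Met rose by 1.85 while Hgf, which encodes its ligand, fell by 1.63. In the insulin, mTOR and FoxO list 13 rose and 10 fell of 30. Prkaa2, a catalytic subunit of the energy sensor AMPK, went from 18.3, 19.8 and 20.3 CPM to 78.9, 103 and 107 CPM (2.31 ± 0.13), whereas the other catalytic subunit gene Prkaa1 fell by 0.57 ± 0.05. Folliculin (Flcn), a regulator of lysosomal mTOR signalling, rose by 1.82, and the insulin receptor substrate gene Irs1 fell by 1.05. The hypoxia list had 8 rises and 8 falls among 22. Hif1a went from 108, 105 and 108 CPM to 204, 208 and 208 CPM (0.95 ± 0.06), and Epas1, which encodes HIF-2 alpha, from 226, 260 and 273 CPM to 46.3, 45.7 and 42.7 CPM (-2.50 ± 0.10). Targets did not follow one direction, since Car12 rose by 1.36 and Egln3 fell by 1.27.

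Clock genes rose on both arms of the feedback loop. Of 28 glucocorticoid targets and clock genes 20 rose and 4 fell (median 0.75). The activators Arntl and Clock rose by 0.69 and 0.51, the repressors Cry1, Per1 and Nr1d1 by 1.24, 1.19 and 1.46, and the output gene Dbp by 1.18. Nr1d1 was at 39.5, 43.3 and 44.9 CPM with PBS, against 97.0, 130 and 125 CPM with MPP+. The glucocorticoid targets Fkbp5 and Sgk1 fell by 0.72 and 0.80. The samples give a single time, so a shift of phase and a change of level cannot be told apart. Early transcription factors held 13 rises and 6 falls among 26 (median 0.37), with Fosl1 at 3.09, Jund at 1.14 and Myc at 1.10, Mycn at -4.36 (-5.41 without MPP+ replicate 3) and Egr2 at -1.99, and Fos not called (0.29).

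Immune genes showed no single direction. Genes of NF-kappaB and chemokines held 13 rises and 6 falls among 32 (median 0.40), interferon-stimulated genes 8 rises and 3 falls among 28 (median 0.22), and class I antigen presentation with complement 9 rises and 12 falls among 25 (median -0.28). Lif, a cytokine of the interleukin 6 family, went from 18.9, 17.4 and 18.8 CPM to 64.3, 93.5 and 77.0 CPM (2.09 ± 0.15). Its receptor genes Lifr and Il6st fell, at -0.70 and -1.13, Stat3 fell by 1.09, as did the STAT3 target Socs3 (-0.82). Pim1, a kinase gene also induced by STAT factors, went from 10.9, 12.4 and 12.8 CPM to 88.8, 219 and 286 CPM (4.04 ± 0.38), lowest in replicate 1 of MPP+. Cxcl10 rose by 1.52 ± 0.18, while Il6, Il1b and Ccl2 were not called and Il6 and Il1b stayed under 1 CPM on average. Class I genes H2-D1, H2-K1, B2m and Tap1 rose by 0.90, 0.68, 0.80 and 1.53. Of the complement genes in that list, 3 are given with their values known: C3 at -1.01 ± 0.29 (967, 1041 and 828 CPM with PBS, against 357, 609 and 441 CPM with MPP+), C4b at -1.31 and C1qa at -1.09. C1qa is also one of the microglia markers given above, whose part in its fall was not tested. The KEGG set of complement and coagulation held 3 rises and 28 falls among 56. The reactive astrocyte genes Serpina3n and Lcn2 fell by 2.12 and 1.48, and Ptx3 was not called (0.18).

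Genes of astrocyte work in the tissue fell together. Of 21 genes for glutamate, potassium, water and gap junctions 1 rose, Slc6a9 above, and 16 fell, with a median of -1.43. Kcnj10, the inward rectifier Kir4.1 that takes up potassium (ENSMUSG00000044708, chromosome 1, 172341210 to 172374085), went from 1467, 1621 and 1538 CPM to 231, 209 and 203 CPM (-2.85 ± 0.13, adjusted p = 1.48e-08). The glial sodium pump subunit gene Atp1b2 fell by 2.56, as did Mlc1 and Hepacam, partners in an astrocyte membrane complex, at -1.87 and -1.09, and the bicarbonate carrier gene Slc4a4, at -1.64. The transcription factors that define astrocytes moved less, with 2 rises and 11 falls among 27 glial factors (median -0.33). Sox2, Nfia and Nfib were not called and Sox9 fell by 0.33. The intermediate filament nestin (Nes) fell by 1.97 from a mean of 2465 to 628 CPM.

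Receptors and channels fell more often than they rose. Astrocyte G protein-coupled receptors and calcium genes held 6 rises and 15 falls among 32, and ion channels and ionotropic receptors 5 rises and 20 falls among 30 (median -0.81). Adrenergic receptor genes went apart, with Adra1a at 0.86, Adra1b at -2.76 and Adra2a at -5.31 ± 0.76. Adra2a was at 4.78, 7.90 and 5.98 CPM with PBS, against 0.399, 0.0 and 0.0615 CPM with MPP+, and its change was -7.59 without MPP+ replicate 1. AMPA receptor genes also differed. Gria2, the subunit that makes the channel impermeable to calcium, went from 52.7, 40.9 and 42.0 CPM to 1.95, 1.44 and 2.34 CPM (-4.57 ± 0.18), Gria1 fell by 2.69 and Gria4 by 0.49, and Gria3 rose by 0.57. GABA receptor subunit genes fell, Gabrb1 by 2.02 and Gabra4 by 4.69 (-6.17 without MPP+ replicate 1). Lrrc8a, the essential subunit of the volume-regulated anion channel, rose by 1.18.

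Secreted synapse-forming and neurotrophic factors held 4 rises and 16 falls among 28 (median -0.78). Ptn, pleiotrophin, went from 227, 291 and 254 CPM to 22.7, 29.8 and 25.1 CPM (-3.32 ± 0.14). Thrombospondins Thbs1 and Thbs2 fell by 1.71 and 1.63, hevin (Sparcl1) by 2.29, the glypican gene Gpc4 by 0.78 and Cntf by 1.87. Sparc, an antagonist of hevin in synapse formation, fell by 0.25. Among factors known to support dopamine neurons, Gdnf, Bdnf and Cdnf differed. Gdnf rose by 1.71 ± 0.18 from 2.49 to 8.15 CPM, and Cdnf fell by 1.54. Bdnf rose by 1.06 ± 0.26 with its highest value in MPP+ replicate 1 (38.7 CPM, against 19.9 in each of the other MPP+ libraries). Igf2 was called lower (-2.19 ± 0.76, and -3.23 without MPP+ replicate 1) but its libraries overlapped, from 32 to 228 CPM with PBS, against 9.10 to 68.3 CPM with MPP+.

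The cytoskeleton fell. Actin genes held 4 rises and 28 falls among 37 (median -0.72), tubulins with motors and microtubule proteins 7 rises and 21 falls among 32 (median -0.97), and cilia genes 2 rises and 21 falls among 34 (median -0.52). The contractile genes Cnn1, Myl9 and Tagln fell, at -3.99, -3.67 and -2.93. Cnn1 and Tagln are also pericyte and smooth muscle markers, a list that held 1 rise and 6 falls among 8 and whose summed level, given above, was lower with MPP+, and the part of such cells was not tested. Tagln, transgelin, was at 1490, 1410 and 1489 CPM with PBS, against 247, 176 and 153 CPM with MPP+, highest in replicate 1 of MPP+. The non-muscle actins Actb and Actg1 fell, at -1.45 and -1.30, and Rhob fell by 2.32. Tubb2b, a tubulin of developing neural cells, went from 719, 748 and 729 CPM to 91.4, 99.2 and 80.6 CPM (-3.02 ± 0.10). The motor genes Kif5b and Dync1h1 were called higher, at 0.28 and 0.35, in a list that fell more often than it rose. Dynein arm genes of motile cilia fell most among cilia genes, with Dnah9 at -4.30 and Dnah5 at -3.49, while Foxj1, the regulator of motile cilia, fell by 0.49. Dnah9 and Foxj1 are also ependymal markers, and the part of such cells was not tested. Targets of YAP, TEAD and serum response factor held 4 rises and 15 falls among 27, with Ccn2 at -2.92 ± 0.46 (-3.80 without MPP+ replicate 1) and the inhibitory kinase gene Lats2 at 0.94.

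Matrix and adhesion genes fell with exceptions. Collagens and their enzymes held 5 rises and 19 falls among 33 (median -0.79), other matrix genes 9 rises and 17 falls among 43, and integrins, cadherins and cell adhesion molecules 6 rises and 28 falls among 39 (median -0.84). Ncan, neurocan, a proteoglycan of the brain matrix, went from 324, 280 and 296 CPM to 26.2, 17.2 and 15.8 CPM (-3.93 ± 0.17), and Tnr and Bcan fell by 3.84 and 1.90. Fibronectin (Fn1) and tenascin C (Tnc) rose by 0.52 and 0.55, the laminin gene Lama1 by 2.53 and the protease genes Mmp3 and Mmp11 by 1.84 and 1.85. The fibrillar collagens Col1a2 and Col3a1 were not called, at -0.98 ± 0.46 and -1.14 ± 0.65. Both were high in replicate 1 of each group, at 448 and 251 CPM for Col1a2, and are fibroblast markers. L1cam and Nrcam, adhesion molecules of neural cells, rose by 1.90 and 1.08 and Cdh4 fell by 2.83.

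Lysosome and autophagy genes rose modestly. Lysosomal enzymes, membrane proteins and proton pump subunits held 27 rises and 5 falls among 38 (median 0.41) and autophagy genes 21 rises and 3 falls among 36 (median 0.25). The wider KEGG lysosome set held 52 rises and 28 falls among 118 (median 0.19), and KEGG animal autophagy 58 and 18 among 119 (median 0.20). Atp6v1b2, a proton pump subunit, went from 163, 165 and 162 CPM to 439, 684 and 567 CPM (1.79 ± 0.13). The sialidase gene Neu1 and the cholesterol exporter gene Npc1 rose by 1.53 and 1.33, and Gusb fell by 1.34. The receptor Sqstm1 rose by 0.85 and the initiating kinase gene Ulk1 by 0.88, while Map1lc3b fell by 0.67. The coordinated lysosomal element TCACGTGA was in 1.68% of all windows, 5 of 28 windows of lysosomal genes (17.9%) and 2.45% of windows of genes called higher. Proteasome subunits barely moved, with 6 rises and 12 falls among 36 and a median of -0.05.

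Genes that build ribosomes rose and splicing factors fell. Ribosomal proteins held 33 rises and 4 falls among 47 (median 0.47, largest Rps19 at 0.97), ribosome biogenesis factors 26 rises and 2 falls among 36 (median 0.58, largest the nucleolar GTPase gene Gnl3 at 1.44), and translation factors 22 rises and 3 falls among 34. Ribosomal protein genes have many processed pseudogenes, so their counts are uncertain. Eef1a1, the elongation factor, rose by 0.57 and was the protein-coding nuclear gene with the highest mean FPKM in MPP+, at 2631. Eif4ebp1, a brake on cap-dependent translation, rose by 3.23. Splicing factors and hnRNP genes held 6 rises and 20 falls among 34. Hnrnph1 went from 195, 198 and 178 CPM to 58.2, 56.9 and 56.7 CPM (-1.73 ± 0.09), and Hnrnpm, Hnrnpa1 and Srsf3 fell by 1.58, 1.42 and 1.24, whereas Ptbp1, a repressor of neural exons, rose by 0.81.

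Noncoding RNAs moved in both directions. Hosts of small nucleolar RNAs and growth-arrest transcripts held 10 rises and 7 falls among 20 (median 0.68). Snhg12 went from 6.75, 5.51 and 6.93 CPM to 30.5, 49.2 and 44.9 CPM (2.70 ± 0.23), Snhg15 rose by 2.67 and Gas5, whose transcript is degraded when it is translated, by 1.65 ± 0.09. Neat1, the scaffold of paraspeckles, went from 271, 328 and 324 CPM to 70.9, 43.6 and 37.0 CPM (-2.61 ± 0.22), Miat fell by 3.58 and Rian and Meg3 of the imprinted Dlk1 region by 1.97 and 1.05. Malat1 rose by 0.65. Among unnamed transcripts 2410006H16Rik rose by 3.19 ± 0.28 to a mean of 215 CPM.

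Counts of the mitochondrial genome could not all be assigned. Nuclear copies on chromosome 1 between 24613189 and 24616197, minus strand, match mitochondrial genes in the reference: Gm10925 is identical to mt-Atp6 over 678 bases, Gm28437 to mt-Co3 over 783 and Gm28661 to mt-Co2 over 681, and Gm29216 has 1 mismatch to mt-Co1 over 483. The copy Gm10925 was at 3421, 908 and 225 CPM with PBS, against 7.68, 7.24 and 8.69 CPM with MPP+, and the other copies varied between the PBS libraries in the same order. With gene and copy added, mt-Atp6 was at 3872, 1670 and 1078 CPM with PBS, against 1336, 1592 and 1758 CPM with MPP+, and the groups overlapped, although mt-Atp6 alone was called higher (1.17 ± 0.33). The sum for mt-Co3 was 6456, 6336 and 6255 CPM with PBS, against 837, 954 and 1139 CPM with MPP+, with no overlap. Without PBS replicate 1 the copies Gm10925, Gm28437, Gm28661 and Gm29216 were at -6.19, -5.73, -3.59 and -5.04. Without MPP+ replicate 2 the changes of Gm28437, Gm28661 and Gm29216 were -8.28, -7.53 and -11.37. The direction of mt-Atp6 and the falls of the copies are therefore uncertain.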

How the data were processed

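Counts per gene and FPKM (fragments per length of transcript and size of library) were deposited by the authors in a single table, per the file headers. The builds GRCm38 and mm10 are named in the submitters' processing notes, and no source used here gives the aligner or the counter. Total counts of the 6 libraries ran from 64249029 to 69543713. The counts were filtered (edgeR's filterByExpr, minimum count 10, minimum total 15), scaled by TMM and fitted by edgeR's quasi-likelihood model with all 12 samples of the series, which left 8 residual degrees of freedom, in R 4.3.3 with edgeR 4.0.16 and limma 3.58.1. DESeq2 1.42.0 was an alternative, as was limma on log2(FPKM + 0.1). FPKM were otherwise used only to compare levels between genes. The test was tried on simulated data first. The 87 gene lists held 2128 symbols, of which 2122 matched and 2104 were tested. Members and lists were chosen with earlier results of these data known. The genes named first come from the 15 largest called rises and the 15 largest called falls whose higher group reached 20 CPM and whose 3 and 3 samples did not overlap. The others are the most changed members of a list, members whose role is explained, noncoding genes ranked within their biotype, genes with a printed promoter, or genes said to have been chosen after their values were seen. Exons of 51 named genes overlap those of another gene with at least 0.2 times their level, so their counts are uncertain, among them Angptl6, Aldh1l2, Bid, Cntf, Ddit3, Dnaja3, Fosl1, Gabra4, L1cam, Mmp11, Nr1d1, Psph, Shmt1 and Slc6a9. Some genes are not reported here, and most mitochondrial genes and noncoding genes that rank by level or within a biotype are left unnamed. Promoter windows are from RefSeq (GRCm38.p6), and the first was used for the 2606 genes with several.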

Additional observations from a re-analysis of the deposited data

How the results depend on the processing

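The number of called genes stayed within 1.5 times the 11667 reported, and the number changed by at least 2-fold within 1.5 times 5376, under all settings tried. These were DESeq2 size factors, total counts, scaling without the mitochondrial genome, no filter and a stricter filter on low counts, a fit of the 6 wild-type samples alone, DESeq2, limma on FPKM and a replicate block. Leaving out 1 library at a time gave 10572 to 11630 called genes and 4934 to 5688 at 2-fold or more. With the replicate number as a block 11607 genes were called and 5253 passed 2-fold. The correlations of same-numbered samples were 0.0516, 0.0436 and 0.0078, and those of differently numbered samples ran from -0.0579 to 0.0185. All of these values are small, so they do not settle whether the numbers pair the samples. No label says that they do. Of the 340 genes named in the report and called, 20 lost the call under at least 1 setting, at adjusted p between 0.0512 and 0.702, and the cause was not tested. Of 24 named genes that were not called, 9 were called under at least 1 setting, namely Col1a2, Col3a1, Fos, Il6, Nfib, Ppargc1a, Slc2a1, Tfam and Xbp1. Over the 87 gene lists and 15 settings, 148 of 1305 medians moved by more than the spread between replicates, and 5 lists had a median of the other sign under some setting, those of amino acid transporters, Cdk inhibitors, complex I, Notch and polyamine genes. Results of single genes that turned direction belonged to Gja1, which was not called. It was at 0.029 without PBS replicate 2 and at 0.149 without MPP+ replicate 1, in a range from -0.239 to 0.149 over the libraries left out. Genes under about 1 CPM have wide errors at this depth.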

Other observations

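Among 294 KEGG pathways with at least 15 tested genes, circadian rhythm had the highest median change (0.51). It held 18 rises and 5 falls among 29 genes. Fat digestion and absorption (0.44), aminoacyl-tRNA biosynthesis (0.43) and allograft rejection (0.405) followed. Ribosome (0.35, with 79 rises and 9 falls among 134) ranked 11 from the top, below unrelated terms such as IL-17 signaling (0.38). The lowest medians were those of systemic lupus erythematosus (-1.31, with 8 rises and 58 falls among 97), protein digestion and absorption (-1.04) and ECM-receptor interaction (-0.96, with 12 rises and 44 falls among 77). These are descriptions with no test.

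By class of gene, 12.3% of 956 long intergenic noncoding RNAs rose and 31.3% fell, with a median of -0.71. Of all tested genes 26.8% rose and 28.4% fell. The lowest of 5 equal classes of protein-coding genes by level had similar values, with 12.7% higher, 28.0% lower and a median of -0.66. Whether level accounts for the values of the noncoding class was not tested. Of 70 small nucleolar RNAs 10 rose (14.3%) and 1 fell (1.43%), with a median of 0.62, and most were not called. On chromosome X 18.8% of 706 tested genes rose and 37.7% fell. Of 5 equal classes of protein-coding genes by genomic span, the longest had a median change of -0.19, with 27.5% higher and 39.3% lower, and the shortest a median of 0.03, with 29.9% higher and 28.2% lower.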
